A study of Caenorhabditis elegans with 3 samples.

Results

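The regions described here are the autosomal introns away from gene 5′ ends in a map of DRAP-1 along the Caenorhabditis elegans genome. A region was a member when its summit, the position of highest signal, lay on an autosome and more than 500 bp from the 5′ end of every annotated gene of any kind. The summit also had to lie inside the span of a protein-coding gene and in no exon of a coding gene. Of the 30000 candidate regions that the authors called on the pooled reads, 5634 met this rule, and they lay in introns of 2780 host genes. The host of a region is the coding gene whose intron, a gap between its merged exons, holds the summit, and the shortest such intron decided where genes overlap. Of the 5634 members, 121 were also in the authors' list of peaks that passed an irreproducible discovery rate (IDR) test of how well ranks repeat between samples. These 121 are called members below.

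DRAP-1 was mapped by chromatin immunoprecipitation followed by sequencing (ChIP-seq) in mixed-stage embryos of both sexes, collected by egg bleaching at a labelled age of 3 hours. All 3 samples were biological replicates of 1 group, numbered 2, 3 and 4, and no comparison group was analysed here. The animals were of strain OP700, with the integrated transgene wgIs700 that carries drap-1 fused to TY1, EGFP and 3xFLAG together with a wild-type unc-119 copy, in the unc-119 mutant background tm4063. The descriptions state precipitation with an anti-GFP antibody, although the antibody label reads drap-1. Whole embryos were used, so the values are averages over cell types. The strain is 1 transgenic line, so it gives no view of untagged DRAP-1. The deposited lists give a signal for each region on an unstated scale and no read counts, so depth is unknown and the signal was used to rank regions within a list.

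DRAP-1 is the alpha subunit of negative cofactor 2, a histone-fold complex with DR1 that binds the TATA-binding protein on promoter DNA and can block entry of TFIIA and TFIIB. Introns of worm genes can hold enhancers, promoters of shorter transcripts of the host and small noncoding RNA genes. Most protein-coding transcripts in the worm are trans-spliced to a spliced leader, so an annotated 5′ end often marks the splice site and not the site where transcription began. A member more than 500 bp from annotated gene 5′ ends can therefore still lie at an unannotated start.

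The sequences of the 8 strongest called members on chromosomes II to V show the kinds of DNA found at these summits. Each is the 201 bases centred on the summit in ce11, taken from the RefSeq copy of that assembly and written 5′ to 3′ on the strand of the host gene. Capitals mark the 6-letter word GAGAGA and the 9-letter word GAGACGCAG, or their reverse complements TCTCTC and CTGCGTCTC, which are counted further on. The windows are chrIII:3499941-3500141 on the minus strand for M01F1.8, chrII:5661813-5662013 on the plus strand for mdt-26, chrII:255246-255446 on the minus strand for scc-2, chrIII:8801935-8802135 on the plus strand for zfp-1, chrV:53401-53601 on the minus strand for srt-52, chrIII:1921262-1921462 on the plus strand for pqn-41, chrIII:6133537-6133737 on the minus strand for mvk-1 and chrV:18573411-18573611 on the minus strand for Y51A2D.13.
M01F1.8: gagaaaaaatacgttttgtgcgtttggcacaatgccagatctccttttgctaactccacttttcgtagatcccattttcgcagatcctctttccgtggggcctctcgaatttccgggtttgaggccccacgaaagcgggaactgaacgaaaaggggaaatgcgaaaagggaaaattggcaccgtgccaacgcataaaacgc
mdt-26: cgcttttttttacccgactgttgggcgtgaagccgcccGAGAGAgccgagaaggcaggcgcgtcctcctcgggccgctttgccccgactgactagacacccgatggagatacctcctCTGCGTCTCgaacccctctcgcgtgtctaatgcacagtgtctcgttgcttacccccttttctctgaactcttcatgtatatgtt
scc-2: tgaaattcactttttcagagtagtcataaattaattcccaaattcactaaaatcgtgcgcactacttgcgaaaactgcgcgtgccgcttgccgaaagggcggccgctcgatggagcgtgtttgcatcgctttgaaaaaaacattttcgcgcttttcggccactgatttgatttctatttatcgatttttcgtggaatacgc
zfp-1: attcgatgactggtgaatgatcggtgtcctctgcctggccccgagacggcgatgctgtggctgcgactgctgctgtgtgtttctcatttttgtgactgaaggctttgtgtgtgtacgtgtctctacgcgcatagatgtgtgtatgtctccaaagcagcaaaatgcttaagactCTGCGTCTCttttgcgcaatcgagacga
srt-52: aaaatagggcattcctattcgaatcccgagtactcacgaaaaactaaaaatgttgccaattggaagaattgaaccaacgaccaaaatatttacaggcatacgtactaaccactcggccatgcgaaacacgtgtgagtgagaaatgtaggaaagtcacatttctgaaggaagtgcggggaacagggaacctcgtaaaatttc
pqn-41: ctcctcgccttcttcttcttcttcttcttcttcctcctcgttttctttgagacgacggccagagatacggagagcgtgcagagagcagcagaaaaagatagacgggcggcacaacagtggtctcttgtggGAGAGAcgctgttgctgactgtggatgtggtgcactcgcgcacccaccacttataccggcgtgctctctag
mvk-1: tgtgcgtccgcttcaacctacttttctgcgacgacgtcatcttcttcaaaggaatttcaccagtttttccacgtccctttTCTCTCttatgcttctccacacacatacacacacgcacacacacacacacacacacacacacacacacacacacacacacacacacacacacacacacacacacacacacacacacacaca
Y51A2D.13: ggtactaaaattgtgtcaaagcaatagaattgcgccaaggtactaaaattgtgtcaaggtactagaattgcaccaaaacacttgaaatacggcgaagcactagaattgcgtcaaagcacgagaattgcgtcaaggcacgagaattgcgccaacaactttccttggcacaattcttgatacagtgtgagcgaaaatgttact
The window of mdt-26 holds both words and that of zfp-1 the longer one, while those of M01F1.8, scc-2, srt-52 and Y51A2D.13 hold neither. Those of pqn-41 and mvk-1 hold the shorter word. The mvk-1 window runs into a long CA repeat. Much of the Y51A2D.13 window is made of similar copies of a short unit, and the pqn-41 window has a CTT repeat near its start.

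Intronic members were called less often than other candidates. The called share was 2.15% of members (121 of 5634, exact Clopper-Pearson 95% interval 1.79 to 2.56), against 4.89% of all pooled candidates and 4.47% of autosomal ones, both of which include the members. Intervals cover the counting of regions only. The same was seen in each replicate's own list of 30000 regions, where as many of the highest-signal regions as the IDR list holds, 4.89% of each list, were taken as its counterpart. Of the intronic members of replicates 2, 3 and 4, 2.72%, 2.84% and 2.35% were among these highest regions, a mean of 2.64% ± 0.259 (SD, n = 3). Intronic autosomal regions within 500 bp of a gene 5′ end stood at 9.56%, 10.8% and 10.6%, with no overlap. The mean difference was −7.66 percentage points ± 0.727 (SD over 3 replicates). Members were also below autosomal intergenic regions away from 5′ ends, at 3.47%, 3.99% and 3.95% (difference −1.17 ± 0.428), and above autosomal exonic ones, at 0.971%, 0.807% and 1.05% (difference 1.69 ± 0.375). The exact two-sided sign-flip test over 3 replicates gave p = 0.25 for each of these differences, the smallest it can give. Intronic regions of the X chromosome, at 2.59%, 3.05% and 2.86%, overlapped the autosomal range (difference −0.198 ± 0.324, exact p = 0.5).

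The same small-sample limit holds for all differences below. With 3 replicates no p-value can be under 0.25, before or after adjustment over the 8 measures compared, so the spread over replicates is given with each. For each measure, the members among a replicate's highest regions (177, 138 and 118 regions in replicates 2, 3 and 4) were compared with its remaining members (6331, 4716 and 4913). Values for the 121 called members against the other 5513 in the pooled list are added as a description, since the pooled list contains the reads of all 3 replicates. Nothing in the labels says whether the replicates were separate cultures beyond the word biological.

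Called members differed between chromosomes by a small count. Chromosome V had 37 of 1238 members called (2.99%), chromosome III 30 of 1255 (2.39%), chromosome I 25 of 1315 (1.90%), chromosome IV 14 of 788 (1.78%) and chromosome II 15 of 1038 (1.45%). On each autosome the share was below that of all candidates of the same chromosome, which ran from 3.65% to 4.83%.

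The pooled signals of the called members ran from 126.8 to 547.1 with a median of 155.3. Their ranks repeated less well between replicates than those of IDR peaks as a whole. When a region was matched to the strongest replicate region with its summit within 100 bp, 35 of the 121 (28.9%) were among the highest regions of every replicate, against 43% of all IDR peaks. The share was lower still for called autosomal intergenic regions (23.1%), exonic regions (17.2%) and X intronic regions (19.2%) away from 5′ ends, and 57.1% for introns within 500 bp of one. A further 38 were there in 2 replicates, 38 in 1 and 10 in none. Replicates 2, 3 and 4 held 78, 74 and 67 of them among their highest regions, and 110, 114 and 108 anywhere in their lists. Median ranks in the 3 lists were 1018, 966 and 1097. The lower share goes with lower rank: of members ranked 1 to 500 in the pooled list, 16 of 18 (88.9%) were found in every replicate, against 93.4% of other IDR peaks of those ranks. At ranks 501 to 1000 the shares were 36.7% (18 of 49) and 31.3%, and from rank 1001 to the end of the IDR list they were 1.85% (1 of 54) and 1.21%. These differences within bands of rank were not tested.

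**Figure D1:**
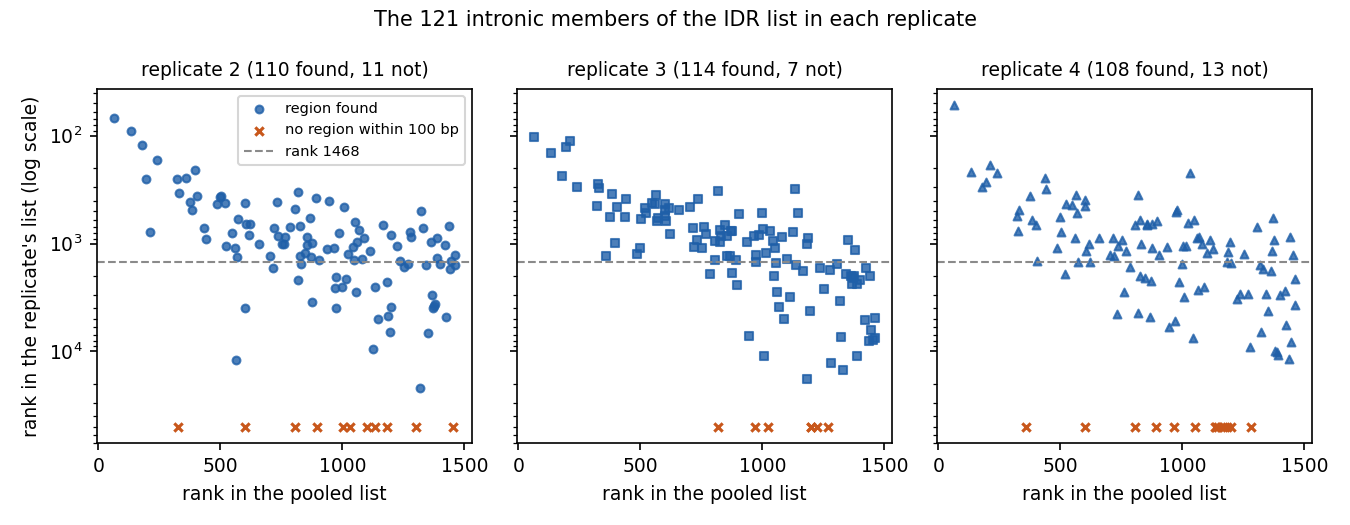
Rank of each of the 121 called members in the pooled list (horizontal axis) against its rank in the list of replicate 2, 3 or 4 (vertical axis, log scale, strongest at the top), with crosses at the bottom for members with no replicate region within 100 bp and a dashed line at the rank where the highest regions end. The strongest members lie well above the line in all 3 panels, while those of lower pooled rank scatter across it, and 11, 7 and 13 have no match in replicates 2, 3 and 4.

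Strong members were more often in the first intron of the host. The share in intron 1 among the highest regions was 29.9%, 23.9% and 26.3% in replicates 2, 3 and 4, and among the remaining members 16.3%, 16.4% and 17.1%. All 3 strong values were above all 3 others (difference 10.1 percentage points ± 3.16, exact sign-flip p = 0.25). In the pooled list 36 of the 121 called members (29.8%) were in intron 1, against 16.5% of the rest. By intron number the called share was 3.82% for intron 1 (36 of 943), 1.63% for intron 2, 1.25% for intron 3, 1.91% for introns 4 to 6 and 2.15% for introns 7 and later. In autosomal introns within 500 bp of a gene 5′ end the pooled shares in intron 1 went the other way. They were 28.1% of 196 called regions and 47.4% of the rest. On the X chromosome the corresponding pooled shares in intron 1 were 19.2% and 19.1%, with 26 called regions. Whether the 2 kinds of chromosome differ was not tested.

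Strong members also lay in longer introns. The median length of the intron reached 1995, 3178.5 and 3067.5 bp among the highest regions of replicates 2, 3 and 4, and 1036, 990.5 and 1007 bp for their remaining members (difference 1736 bp ± 676, exact p = 0.25). In the pooled list the medians were 3184 and 1056 bp. The called share was near 1% in introns under 2000 bp, at 0.976%, 1.13% and 1.33% in the 3 length classes, and was 3.52% in introns of 2000 to 3999 bp and 4.74% in those of 4000 bp or more. The longest class stood at 5.06%, 6.12% and 4.69% in replicates 2, 3 and 4, and the shortest at 1.12%, 0.903% and 0.888%. The 2 features were then split by each other in the pooled list. In introns of 2000 bp or more, 4.86% of first-intron members and 3.96% of later-intron members were called, and in shorter introns 2.33% and 0.999%. In the replicates, long introns had higher shares than short ones for first and for later introns alike. First introns had higher shares than later ones among short introns in every replicate. Among long introns they did so clearly in replicate 2 alone (6.23% against 3.63%), with 5.15% against 5.31% in replicate 3 and 4.72% against 4.66% in replicate 4.

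Both differences depended on which 5′ ends define a member. With only the 5′ ends of protein-coding genes excluded, which lets in introns that host snoRNA and other noncoding genes, the first-intron difference was 2.80 percentage points ± 1.96 and the length difference 233 bp ± 78.5, in the same direction. With 2 times as many regions per replicate taken as high, they were 5.46 points and 929.8 bp. With the higher-signal part of the called set the first-intron difference was 19.6 points.

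**Figure D2:**
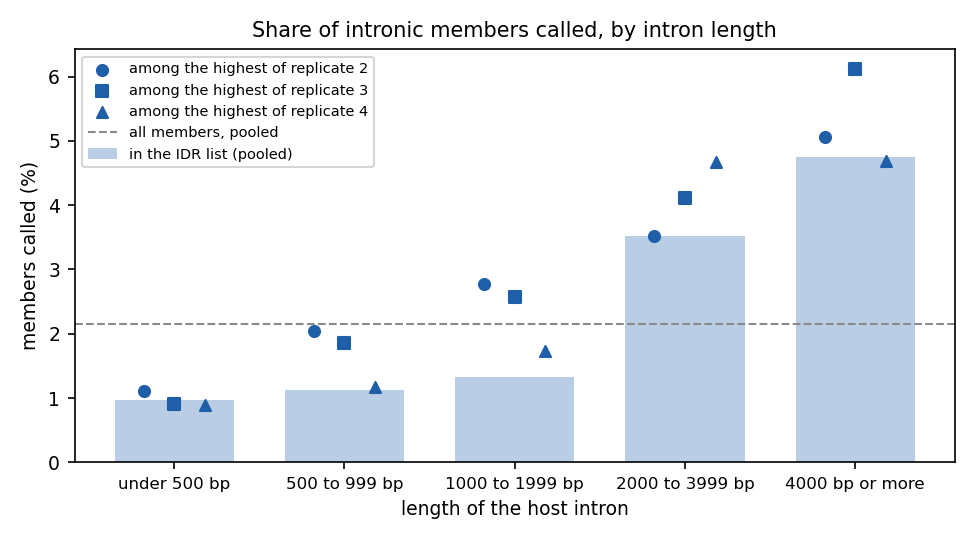
Share of intronic members called (percent) in 5 classes of intron length. Bars give the share in the IDR list, symbols the share among the highest regions of each replicate, and the dashed line the 2.15% of all members. The 2 longest classes lie above the line in the bars and in every replicate.

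Summits of strong members were farther from the intron's edges and in larger genes. The median distance to the nearer edge was 441, 728 and 703.5 bp among the highest regions and 229, 196.5 and 203 bp among the rest (difference 414.7 bp ± 176, exact p = 0.25). This distance is bounded by the length of the intron, which was also larger for strong members. As a fraction of the intron from its 5′ edge, the median pooled position was 0.574 for called and 0.535 for remaining members. Whether edge distance differed beyond intron length was not tested. Median spans of the host gene were 10393, 13173 and 12105 bp against 8321, 7458.5 and 7572 bp (difference 4107 bp ± 1858, exact p = 0.25). With coding 5′ ends only, the edge difference was 43.3 bp and the span difference 429.8 bp ± 414. None of the 121 called members lay inside more than 1 coding gene, against 2.03% of the rest.

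An internal transcript start is an annotated 5′ end of a transcript that is no gene's 5′ end, and 11741 were in the annotation. Strong members lay near one more often: 14.1%, 15.9% and 22.03% of the highest regions of replicates 2, 3 and 4 had one within 500 bp, against 10.9%, 11.7% and 11.2% of the rest (difference 6.08 points ± 4.12, exact p = 0.25). Without replicate 4 the difference was 3.72 points. It was 9.16 points when members could lie as close as 250 bp to a gene 5′ end, 3.36 with coding 5′ ends only, 13.3 for the higher-signal part and 3.04 with 2 times as many regions per replicate. In the pooled list 28 called members (23.1%) were within 500 bp of an internal start, against 11.2% of the rest. For the higher-signal part of the pooled list the difference went the other way than in the replicates, to 7.47 points from 11.9. The start belonged to the host gene for all 28, and for 616 of the 620 remaining members near one. Of the 28 called members near a start, 23 (82.1%) lay upstream of it, with a median offset of −141.5 bp. Of 620 other members near a start, 64.8% lay upstream. The strong regions of replicates 2, 3 and 4 were upstream in 88.0%, 86.4% and 69.2% of cases, against 66.5%, 67.6% and 65.0%. No called summit was in the 200 bp downstream of an internal start, where remaining members were also few (0.254% and 0.599% of them in the first and the next 100 bp). The rule on exons bears on this position, because the DNA just downstream of a start is an exon of that transcript. In the pooled list members near a start were called at 3.14% against 0.845% in introns under 2000 bp and at 7.65% against 3.89% in longer ones. In the replicates the short introns gave 2.39%, 3.32% and 3.28% near a start against 1.92%, 1.41% and 0.912%. The long ones gave 7.02%, 5.23% and 7.95% against 4.16%, 5.26% and 4.35%, so replicate 3 showed no such difference there.

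The strongest member near an internal start was in scc-2, which encodes the cohesin loader of the Nipped-B family, 150 bp upstream of the start of transcript Y43H11AL.3a.1 in a first intron of 8367 bp. It ranked 122, 238 and 297 in replicates 2, 3 and 4. The next were 198 bp upstream of a start in T02E1.2, 263 bp downstream in uba-5, whose product activates a ubiquitin-like protein, 229 bp upstream in lit-1 and 292 bp upstream in gsa-1. The lit-1 gene encodes the worm Nemo-like kinase of Wnt signalling and gsa-1 the alpha subunit of the G protein Gs. Lower on the list were unc-108, which encodes the worm Rab2, 480 bp upstream, and anc-1, which encodes a protein that anchors nuclei to the cytoskeleton, 233 bp upstream. The unc-108 member ranked 3986 in replicate 2 but 488 and 452 in the others.

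Distance to the nearest gene 5′ end gave no stable difference. Medians were 1930, 1813.5 and 2013.5 bp for the highest regions and 1865, 1706.5 and 1731 bp for the rest (difference 151.5 bp ± 115.4, exact p = 0.25), and the sign turned to −47.8 bp with a minimum distance of 250 bp and to −978 bp with coding 5′ ends only. The nearest gene was protein-coding for 66 called members (54.5%, against 70.3% of the rest), an unclassified noncoding RNA gene for 36 (29.8%, against 20.1%) and a small nucleolar RNA gene for 9 (7.44%, against 2.00% of the rest).

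Called members lay near other IDR peaks. Of the 121, 53 (43.8%) had another IDR summit within 5000 bp, against 15.9% of remaining members with any. For 10 of them it was within 500 bp, and joining called members that close leaves 117 sites. The 5′ end of the host itself had an IDR summit within 500 bp for 10 of the 97 hosts of called members (10.3%), against 111 of the other 2683 hosts (4.14%) and 3.71% of all autosomal coding genes. For the other called hosts, no IDR summit lay within 500 bp of the annotated 5′ end of the gene. Weaker candidates at those 5′ ends were not counted.

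**Figure D3:**
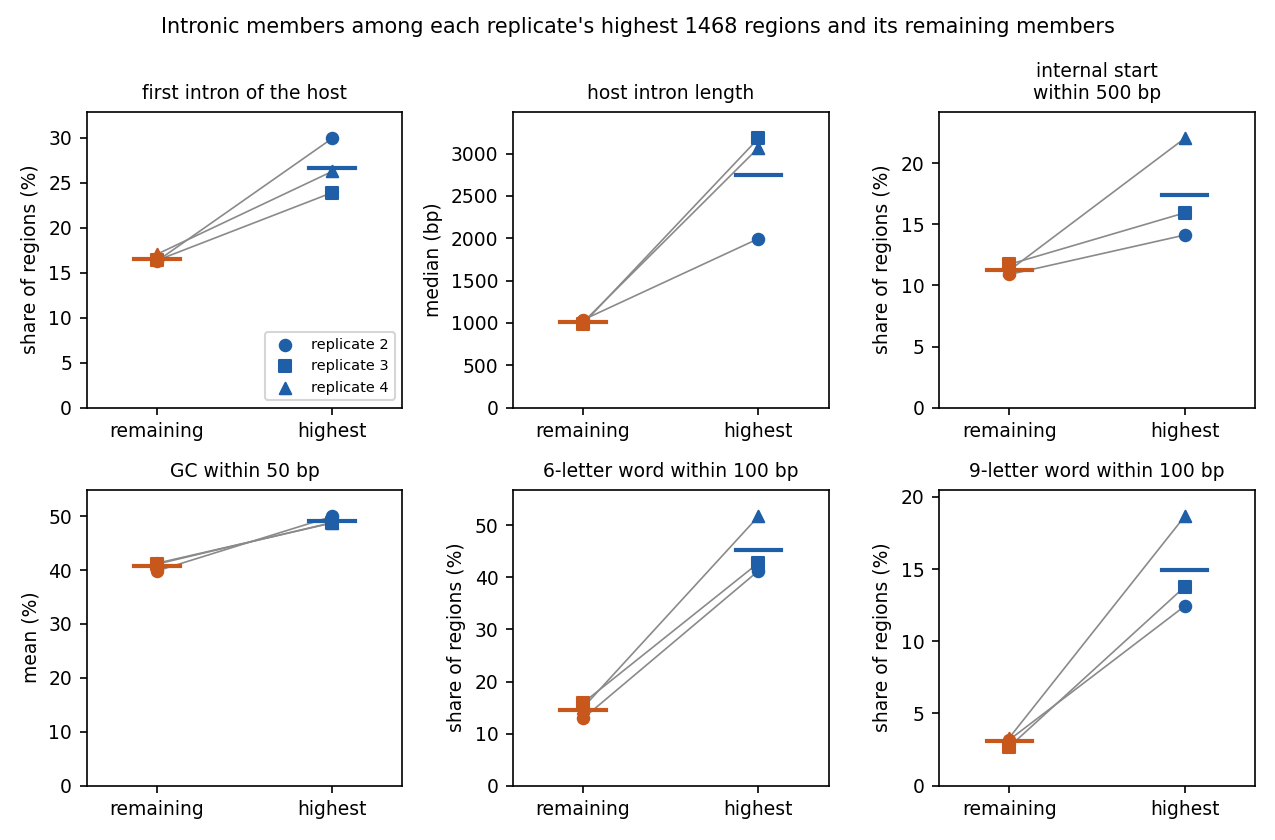
Values in each replicate for its members among the highest regions (blue) and its remaining members (orange), with lines joining the values of a replicate and bars at the means. In all 6 panels (share in the first intron, median intron length, share near an internal start, mean GC, and shares with the 6-letter word GAGAGA and the 9-letter word GAGACGCAG) each replicate is higher among its strong members.

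The 20 strongest called members were in 17 genes. Of these 20, 6 were in a first intron, 10 in an intron of 2000 bp or more and 5 within 500 bp of an internal start, and 17 were among the highest regions of every replicate. The strongest was in intron 4 of M01F1.8, with a pooled signal of 547.1 at rank 65 and ranks 69, 103 and 52 in replicates 2, 3 and 4. Its replicate signals were 196.3, 167.7 and 155.7, which are not on 1 scale with the pooled value. The intron is 1170 bp long, and the nearest gene 5′ end, of M01F1.9, was 984 bp away. The next was in the first intron of mdt-26, 732 bp from the gene's 5′ end, at pooled rank 135 and replicate ranks 91, 145 and 218. The mdt-26 gene encodes a subunit of Mediator, the complex that links transcription factors to RNA polymerase II, and its own 5′ end also had an IDR summit, 729 bp from this one.

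Both of these were strong in all 3 replicates, and others were less even. The member in srt-52, a serpentine receptor gene, ranked 784 in replicate 2 and 113 and 187 in the others. The member in Y51A2D.13 had no region within 100 bp in replicate 2. The member in let-526, whose product is an ARID protein of the SWI/SNF chromatin remodelling complex, had none in replicate 4. The remaining members of the 20 were in mvk-1, a kinase gene of the mevalonate pathway, larp-1, a La-related RNA-binding protein gene, spop-1, the speckle-type POZ protein gene, unc-76, which acts in axon growth, and dyf-19, which acts in cilia. Pooled ranks of these 5 ran from 323 to 485. The mvk-1 summit is at the edge of the CA repeat printed above, and 25.7% of the 50-letter words within 100 bp of it occur more than once in the genome.

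Of the 97 hosts of called members, 79 had 1, 14 had 2 and 4 had 3 or more. Hosts with a called member had a median of 5 members in all, against 1 for other hosts, so they offered more regions to be called. The 4 hosts with 3 or more were zfp-1 (4 of 6 members called), Y43F8B.2 (4 of 7), pqn-41 (3 of 15) and Y69H2.10 (3 of 4). The zfp-1 gene encodes a zinc finger chromatin protein related to mammalian AF10. Its called members formed 2 clusters. In intron 10, of 3173 bp, the summits with pooled ranks 194 and 1399 lay 206 bp apart and 784 and 578 bp upstream of an internal start. The first of them ranked 253, 127 and 269 in the replicates. In intron 5, of 3573 bp, the called summits had ranks 720 and 503, and a member that was not called, 209 bp from the latter, missed the list at rank 1487.

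The pqn-41 gene encodes a protein with polyglutamine repeats that acts in the death of the linker cell in worm males. All 3 of its called members were in intron 15, of 7770 bp, at pooled ranks 239, 520 and 398. They lay 15404, 17783 and 19416 bp from the gene's 5′ end, between internal starts at 13613 and 21713 bp. The strongest ranked 167, 296 and 223 in replicates 2, 3 and 4. The other 12 members of pqn-41 had pooled signals of at most 87.6, well below the 3 called ones at 207.9 or more.

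**Figure D4:**
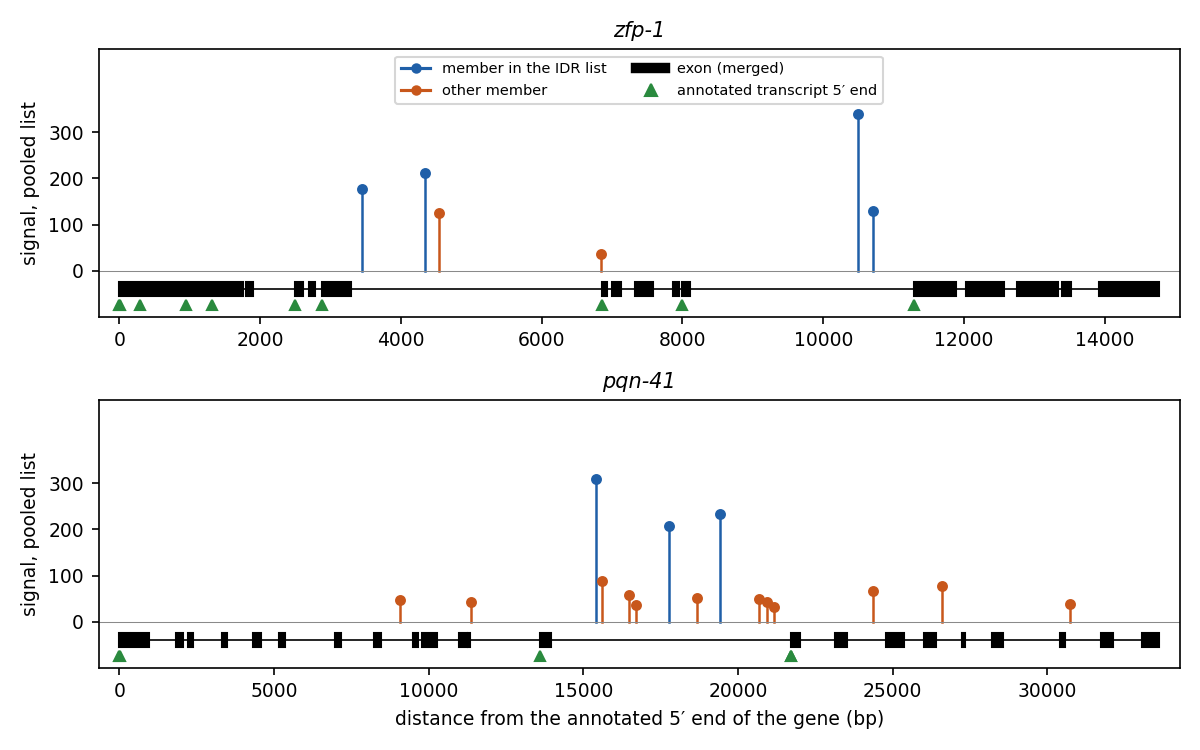
Members in zfp-1 and pqn-41 by distance from the annotated 5′ end of the gene (bp, in the direction of transcription), with stems for the pooled signal (authors' scale), black boxes for merged exons and triangles for annotated transcript 5′ ends. Called members (blue) sit in the long introns of both genes, with signals of 129.5 to 339.0 in zfp-1 and 207.9 to 309.5 in pqn-41.

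The hosts Y43F8B.2 and Y69H2.10 were less repeatable. The called members of Y43F8B.2 had pooled ranks of 848 to 1196, and each missed the highest regions of at least 1 replicate. The one at rank 1134 ranked 2538 in replicate 2 and 309 in replicate 3 and had no match in replicate 4. The called members of Y69H2.10, which encodes a protein with a TIL domain, had pooled ranks of 786 to 1365. All 3 were among the highest regions of replicate 2, at ranks 785, 702 and 975, and none were in replicate 3 or 4. Genes with the most members were not those with the most called ones: hmr-1, the worm classical cadherin gene, had 28 members and 2 called, dkf-2 had 27 and 2, and daf-5 had 18 and none, all 3 named after their values were seen.

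Hosts were sorted into 10 lists of developmental and structural genes. Nuclear hormone receptor genes had 4 called of 82 members (4.88%, in nhr-23, nhr-65 and nhr-70), and the 3 replicates stood at 6.00%, 4.82% and 2.41%. Genes of Wnt, Notch and TGF-beta signalling had 3 of 73 (4.11%), in lit-1 and lag-1, the latter encoding the DNA-binding factor of the Notch pathway, with 8.82%, 7.69% and 6.06% in the replicates. All members stood at 2.72%, 2.84% and 2.35%. The replicate shares were above these in every replicate for both of these lists and for adhesion and guidance genes (2.84%, 3.65% and 2.96%). Some gaps were narrow, as for nuclear hormone receptor genes in replicate 4 (2.41% against 2.35%). Adhesion and guidance genes in replicate 2 were also close (2.84% against 2.72%). They were below in every replicate for bHLH, GATA, T-box, fork head and Sox factors (1.75%, 2.27% and 0). The same held for homeobox (2.38%, 1.45% and 1.59%) and muscle genes (0, 0 and 2.08%). It also held for ion channel (1.18%, 0 and 0.885%) and RNA-binding genes (0 in every replicate). Genes of bHLH, GATA, T-box, fork head and Sox factors had 2 of 52 called in the pooled list (3.85%), in egl-18 and hlh-30. That share was above the 2.15% of all members, unlike in the replicates. Adhesion and guidance genes had 3 of 143 (2.10%), in hmr-1 and sax-7, which was below the 2.15% of all members, again unlike in the replicates. Cytoskeletal genes had 3 of 134, in anc-1, unc-73 and vab-10, and neuropeptide and G protein-coupled receptor genes 2 of 183. Homeobox genes had 0 of 76, which allows a share of up to 3.95%, muscle genes 0 of 46 (up to 6.52%), ion channel genes 0 of 141 (up to 2.13%) and RNA-binding genes 0 of 39 (up to 7.69%). These limits count 3 regions and cover counting error only. The lists were matched by gene name and are not complete, so a 0 holds for the listed genes alone. Called members outside the lists lay in cone-1 and Y56A3A.7, whose RefSeq products are cut-like homeobox proteins, in kcnl-1, of the calcium-activated potassium channel family, and in larp-1, nova-1 and lin-28, which encode RNA-binding proteins. The counts are small, with 4 called regions at most in a list, and differences between a list and the 2.15% of all members were not tested. The hosts named in and beside these lists were named after their values were seen.

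The DNA at strong summits was richer in G and C. Mean GC within 50 bp of the summit came to 49.9%, 48.8% and 48.7% at the highest regions of the 3 replicates and to 39.8%, 41.1% and 41.3% at the rest (difference 8.44 points ± 1.46, exact p = 0.25), and to 50.98% and 42.2% in the pooled list. The called share went from 0.322% of members under 40% GC to 9.71% of those at 55% or more. Other classes of region showed it as well, with 52.8% and 42.8% in introns within 500 bp of a 5′ end and 50.4% and 43.7% in intergenic regions of the pooled list. GC content also affects how well DNA is sheared, amplified and sequenced, and its part in the difference was not tested.

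GA-rich words were commoner at strong members. GAGAGA, on either strand within 100 bp of the summit, was present at 41.2%, 42.8% and 51.7% of the highest regions of replicates 2, 3 and 4 and at 12.9%, 15.9% and 14.98% of the rest (difference 30.6 points ± 5.31, exact p = 0.25). In the pooled list 66 of the 121 called members (54.5%) held it, against 15.3% of the rest, 18.6% of all candidates and 41.8% of all IDR peaks. The share followed rank beyond the called set, at 56.7% for ranks 1 to 1000, 51.9% for the called members below them, 34.4% for 1469 to 3000, 21.8% for 3001 to 6000, 15.3% for 6001 to 12000 and 13.0% below. It was higher in called members in every band of GC, but the low bands held few of them. The values were 3 of 7 against 10.6% under 40% GC and 4 of 13 against 15.5% at 40 to 45%. They were 19 of 38 against 19.1% at 45 to 50% GC, 76.7% against 22.3% at 50 to 55% and 51.5% against 21.8% at 55% or more. The share with GAGAGA by class of member is given next. It was 64.3% of called members near an internal start and 51.6% of the others. Most runs were short, with a median of 6 bases, and 12 called members (9.92%, against 1.52% of the rest) had a run of 12 bases or more.

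The word was not confined to introns. Called intergenic regions held it at 64.4%, called introns within 500 bp of a 5′ end at 37.8%, called exonic regions at 31.0% (9 of 29) and called X intronic regions at 34.6% (9 of 26). In 25 bp bins along the host strand the share in called members was highest at 50 to 74 bp and 75 to 99 bp downstream of the summit (19.01% and 17.4%), and was 4.96% at 26 to 50 bp upstream. Remaining members stood at 1.43% to 2.94% in all bins.

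**Figure D5:**
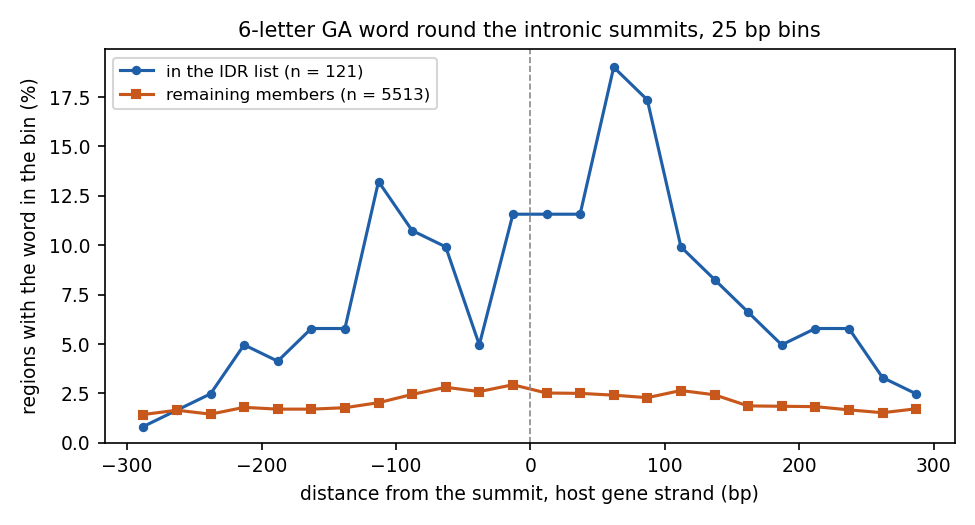
Share of members with GAGAGA or TCTCTC (percent) in 25 bp bins round the summit, on the strand of the host gene, for the 121 called (blue) and 5513 remaining members (orange). The called members lie above the rest from 250 bp upstream to 299 bp downstream, with the highest bins, of 19.01% and 17.4%, at 50 to 99 bp downstream.

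All 2080 words of 6 letters, with both strands counted as 1, were then ranked by the difference between called and remaining members of the pooled list. GAGAGA led. The word CGTCTC was among the next and was present at 45 called members (37.2%, against 8.80% of the rest). A CA-repeat word, ACACAC, was present at 47 (38.8%, against 11.7%). The word GACGCA was also among the first 10, at 39 called members (32.2%, against 8.31%), and several of these words overlap in the longer GAGACGCAG. That word was within 100 bp of 28 called members (23.1%) and of 3.57% of the rest, and of 3.06% of all candidates. It was not particular to introns: over all pooled candidates it was at 11.9% of IDR peaks and 2.60% of the others. In replicates 2, 3 and 4 it was at 12.4%, 13.8% and 18.6% of the highest regions and 3.17%, 2.69% and 3.32% of the others (difference 11.9 points ± 3.12, exact p = 0.25). Because the word was picked on these regions, its values are a description. Of the called members 24 held both words, 51 held neither, and 57.9% held either one, against 17.1% of the rest.

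AT-rich words were less common at strong members. AAAATT was within 100 bp of 17.4% of called and 55.3% of remaining members. In replicates 2, 3 and 4 it was at 23.7%, 17.4% and 21.2% of the highest regions. The rest stood at 65.6%, 53.2% and 54.3%. Of the 12 short motifs searched on both strands, the TATA box TATAAA was within 100 bp of 6.21%, 4.35% and 5.08% of the highest regions of the replicates, against 14.7%, 12.2% and 11.6% of the rest and 10.8% of all candidates (difference −7.59 points ± 1.02, exact p = 0.25). The GATA site TGATAA was at 5.65%, 5.07% and 5.93% against 10.9%, 11.9% and 12.3%, with 11.8% of all candidates. Runs of 8 T were at 8.47%, 1.45% and 2.54% against 22.7%, 12.1% and 12.3%, with 10.4% of all candidates. The GC-rich words CGCGCG and CCCGCC were commoner at strong members (differences 5.13 ± 1.70 and 7.90 ± 1.92 points), with 3.46% and 7.42% of all candidates. The tRNA promoter B box core GGTTCGA was at 3 called members (2.48%, against 1.87% of the rest and 2.70% of all candidates). The highest regions of the replicates had it at 3.39%, 2.90% and 4.24%, against 1.80%, 1.74% and 1.30%. The A box core TGGCNNAG was at 9 called members (7.44%, against 10.2% of the rest and 9.78% of all candidates). In the replicates it stood at 7.91%, 5.80% and 9.32% against 10.2%, 8.74% and 8.77%, so it was lower in replicates 2 and 3. A match is only a string of letters. The same sets differed in GC as described above, and the part of GC in these motif counts was not tested.

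Words of 50 letters that occur more than once in the genome were rare at called and remaining members. Repeats that are short or differ between copies are missed by this count. In the Y51A2D.13 window printed above, for example, it gave 1.32% of words as repeated. Short repeats were commoner at called members, with ACACAC at 38.8% against 11.7% of the rest. GA runs of 12 bases or more were at 9.92% against 1.52%. At 111 of the 121 (91.7%), every 50-letter word within 100 bp of the summit was unique in the genome, against 88.9% of the rest, and no called member had more than 50% of its words repeated, against 1.31% of the rest (72 of 5513). Of the 20 strongest, 17 (85%) had unique words alone. The mean share of repeated words was 1.34%, 1.22% and 0.663% at the highest regions of replicates 2, 3 and 4 and 2.80%, 1.91% and 1.97% at the rest (difference −1.15 points ± 0.405, exact p = 0.25). With coding 5′ ends only, the sign turned, to 3.37 points.

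At the edge of the IDR list, the last members inside were in Y48C3A.5, Y43F8B.1 and lir-1, at pooled ranks 1455, 1460 and 1462 with signals of 127.2, 126.9 and 126.8. The first outside were in srh-298, kin-1 and grdn-1, at ranks 1475, 1477 and 1484 with signals of 126.4, 126.3 and 126.1. These values are nearly equal on both sides. Of the genes on the transgene, unc-119 had 2 members in its first intron, at pooled ranks 6801 and 19288, and neither was called. The tagged gene drap-1 held no member.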

How the data were processed

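DRAP-1 ChIP-seq gave 5 region lists on ce11. Per the deposited README texts, the authors made each replicate list from its own alignment with 2 control files, the pooled list from all 3 alignments with controls, and the IDR list from these. Neither caller nor version, IDR threshold or type of control is given in the sources used here. The deposited signal per region (scale not stated) was used only for ranks within a list, and the deposited −log10 q-value was not used. The IDR list held exactly the top 1468 pooled regions by signal, so being called is a signal threshold. Depth is unknown.

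Summits were placed on WBcel235 gene models of Ensembl release 115 (the same assembly as ce11), and sequences and products came from RefSeq. Python 3.11.15, NumPy 2.4.6 and SciPy 1.17.1 were used. The placement and the repeat count were checked on brute-force answers. Replicate values were compared with an exact two-sided sign-flip test, since no counts allow a count test, and the members were not resampled. The members, host lists and motifs were chosen with earlier results of these data known. The reported values of GAGAGA within 100 bp, the 6-letter and 9-letter words, the neighbouring peaks and the host 5′ ends were added after seeing the data.

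Named members are the 20 strongest called ones, those in hosts with 3 or more called members, those within 500 bp of an internal start among the 40 strongest, the 3 just inside and just outside the IDR list, and those in drap-1 and unc-119. The alternatives changed the distance to 5′ ends, the set of 5′ ends, the exon rule, the called set, the comparison set and the replicates.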

Additional observations from a re-analysis of the deposited data

How the results depend on the processing

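The 10 measures here were the 8 compared per replicate and the shares with GAGAGA and the 9-letter word, added after seeing the data. Settings that leave out 1 replicate could not turn a mean difference, since each measure had the same sign in all 3 replicates. With those settings counted, 123 of 126 alternative values kept their direction. The other 3 were the distance to the nearest gene 5′ end, −47.8 bp with a minimum distance of 250 bp and −978 bp with coding 5′ ends only, and the repeated sequence, 3.37 points with coding 5′ ends only. In the pooled list the distance turned to −188 bp and −1231 bp under those settings, to −229 bp in the higher-signal part and to between −300 and 650.5 bp when replicates were left out (−300 without replicate 3), and the repeated sequence to 3.52 points. The E box difference turned to −0.437 points within 100 bp. The called share of members was 3.94% with coding 5′ ends only and 0.657% for the higher-signal part, a shorter list by construction. With each replicate left out in turn, counting only IDR regions found in both others, it was 0.728% to 0.923%. With summits within 50 bp, 15.7% of called members were found in every replicate, and within 200 bp 37.2%. Leaving out each replicate gave 8.38 to 11.4 points for the first intron, 1510 to 2124 bp for intron length, 7.60 to 8.92 points for GC, 27.6 to 32.5 points for GAGAGA and 10.2 to 13.2 points for the 9-letter word. GAGAGA within 50 bp gave 19.4 points. The setting with 2 times as many regions has no pooled value. The cause of these shifts was not tested. No paired analysis was possible because the samples form 1 group, with no second group to pair by replicate number. The differences between strong and remaining members were each taken within a replicate. Depth is unknown, so it sets no stated limit. Peak lists with 30000 regions each include background, and the 121 called members limit every split of them.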
